A study of Caenorhabditis elegans with 2 samples.

Results

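Of the 2243 peaks of tagged LIN-1 on the nuclear chromosomes of L4 larvae, 374 had their summit in an intron of a protein-coding gene and away from promoters and small RNA genes. These intronic peaks were chosen by position alone. A summit had to lie inside the span of a protein-coding gene but in no annotated exon, outside promoter windows (from 1000 bp before a coding gene's start to 200 bp after it), and more than 200 bp from any tRNA, snoRNA, snRNA or rRNA gene. Of the nuclear summits, 845 lay inside a protein-coding gene span and 477 of these in no exon; 44 were then left out for a promoter window and 59 for a small RNA gene. The intronic peaks made up 16.7% of nuclear peaks (exact 95% binomial interval 15.2 to 18.3%). Intron sequence that meets the same rule, called qualifying intron sequence here, amounted to 29.8 Mb or 29.7% of the nuclear genome, so that there were 12.6 intronic peaks per Mb of it.

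The peaks come from ChIP-seq, the sequencing of DNA immunoprecipitated with a chromatin protein, in whole Caenorhabditis elegans at 48 hours, as L4 larvae, after synchronisation by bleaching and starvation at the L1 stage. All animals were of strain RW12212, whose genotype st12212[lin-1::TY1::EGFP::3xFLAG] IV places TY1, EGFP and 3xFLAG tags at lin-1 by a CRISPR insertion. The series holds 1 group of 2 replicates that the labels call biological, with no untagged or untreated group, so that no comparison between conditions is possible. The labels' description names an anti-GFP antibody and their antibody field reads lin-1, and a control experiment that they name as possible was not used here.

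LIN-1 is a transcription factor of the ETS family. In the worm it is a nuclear target of Ras and ERK signalling, holds back the vulval cell fate until ERK phosphorylates it, and is also needed in the excretory duct. ETS domains bind DNA around a GGAA core. Introns of worm genes can hold enhancers and start sites of shorter transcripts. In whole animals, binding in few cells and weak binding in many cannot be told apart.

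Several short words stood at the summits of these peaks far more often than in the sequence around them, and the ETS word was not among them. The windows below, 50 bp to each side of the summit, were picked from the 20 highest intronic peaks found in both replicates. All but that of tir-1, shown as a tandem repeat, were picked because they hold those words. The windows of pck-2, mom-1, ZK470.2, nhr-3 and cmk-1, not shown, hold none of them. They are on the plus strand of WBcel235, the same assembly as ce11, and were read from the RefSeq copy of it. Capitals mark, on either strand, the GATA word TGATAA, the GAGA word GAGAGA, the E-box word CACGTG, the ETS word CCGGAA and the heat shock unit TTCNNGAA.
T13B5.9, chrII:1103819-1103919: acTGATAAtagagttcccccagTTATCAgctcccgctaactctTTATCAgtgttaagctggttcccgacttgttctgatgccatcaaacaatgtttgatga
fat-4, chrIV:9801653-9801753: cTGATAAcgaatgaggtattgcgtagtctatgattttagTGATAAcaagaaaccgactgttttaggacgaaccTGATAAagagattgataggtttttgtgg
mob-2, chrX:13165820-13165920: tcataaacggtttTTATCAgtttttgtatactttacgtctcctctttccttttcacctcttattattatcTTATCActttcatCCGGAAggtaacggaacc
pqn-41, chrIII:1926555-1926655: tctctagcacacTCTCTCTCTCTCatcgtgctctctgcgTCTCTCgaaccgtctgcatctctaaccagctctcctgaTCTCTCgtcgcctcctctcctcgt
epg-9, chrIV:2602094-2602194: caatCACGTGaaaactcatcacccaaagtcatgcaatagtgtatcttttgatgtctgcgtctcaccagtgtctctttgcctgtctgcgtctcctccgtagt
fkh-7, chrIV:5591272-5591372: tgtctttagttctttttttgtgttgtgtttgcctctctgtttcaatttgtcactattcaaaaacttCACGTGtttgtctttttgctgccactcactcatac
tir-1, chrIII:3897227-3897327: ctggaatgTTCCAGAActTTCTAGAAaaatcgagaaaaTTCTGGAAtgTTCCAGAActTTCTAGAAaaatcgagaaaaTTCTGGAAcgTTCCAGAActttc

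The windows of T13B5.9 and fat-4 each hold the GATA word 3 times, and that of mob-2 holds it 2 times and the ETS word once. The pqn-41 window holds 6 copies of the GAGA word, some of them overlapping in a run of TC. The windows of epg-9 and fkh-7 have a single palindromic E-box word. The tir-1 window is a tandem repeat with a period of 40 bp, 98.4% identical to itself at that shift, and holds 7 copies of the heat shock unit.

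Peak heights of the intronic class were spread over a wide range. The signal, a value that the authors gave to each peak on a scale that is not stated, had a median of 69.1 over the 374 intronic peaks (quartiles 57.8 and 89.6, range 2.42 to 267). The promoter class, 827 summits inside a promoter window and more than 200 bp from small RNA genes, had a median of 74.1, and the distal intergenic class, 463 summits outside genes and promoters, had 73.6. Peaks in exons had a lower median, 66.2, and those near small RNA genes a higher one, 83.4. Intronic peaks lay above the median of all nuclear peaks in 153 of 374 cases or 40.9%, against 417 of 827 or 50.4% in promoters (Fisher's exact test, two-sided, Benjamini-Hochberg adjusted p = 0.0168 over 10 tests). Against the distal intergenic class, 230 of 463 or 49.7%, the adjusted p of the exact test was 0.0402. Neither difference passed the threshold at a global irreproducible discovery rate (IDR) of 0.001, where the shares were 47.3% in introns against 48.2% in promoters and 52.3% in the distal class. Neither passed it in the list of replicate 1 or of replicate 2 alone. The difference from distal peaks was lost in 6 of 11 alternatives, among them leaving out peaks that repeat a stronger one (exact test, adjusted p = 0.0528), keeping the strongest of summits within 500 bp (0.0619) and promoter windows of 500 bp upstream (0.0714).

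**Figure D1:**
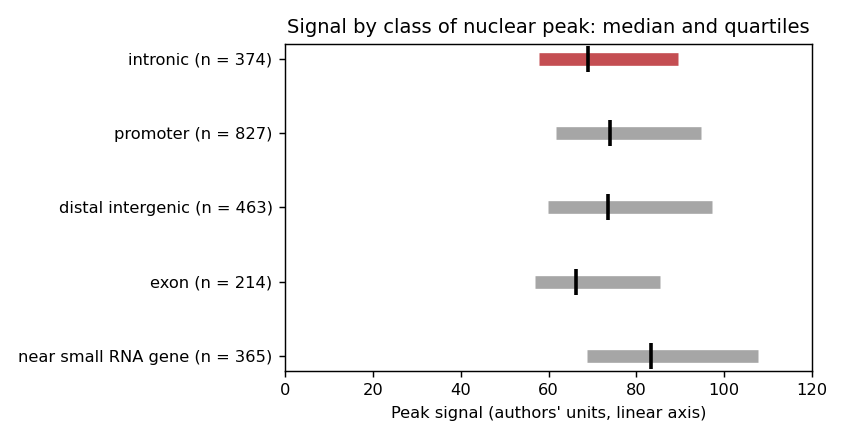
Peak signal in the authors' units (x axis, linear) for the 5 classes of nuclear peak (y axis); bars run from the lower to the upper quartile and ticks mark the median. The intronic median of 69.1 lies below those of the promoter class at 74.1 and the distal intergenic class at 73.6, with bars that overlap widely. The exon class is lower still at 66.2, and the class near small RNA genes is the highest at 83.4.

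Each intronic peak was traced in the 2 replicates' own lists. Replicate 1 had 1079 peaks past the threshold and replicate 2 had 1348; read totals are not in these lists. Of the 374 intronic peaks, 87 overlapped a thresholded peak of both replicates, or 23.3%. A further 41 did so in replicate 1 only and 99 in replicate 2 only, and 147 or 39.3% were in neither list and rested on their joint rank. The share in both was 32.6% in the distal intergenic class (151 of 463; exact test, adjusted p = 0.0168) and 29.3% in promoters (242 of 827; adjusted p = 0.0765). With promoter windows of 500 bp upstream, the exact test gave an adjusted p of 0.0629 against distal peaks and 0.0176 against promoters, so that the calls changed places. Of the peaks in replicate 1's own list, 63.1% of intronic and 66.2% of distal ones overlapped the list of replicate 2 (exact test, adjusted p = 0.928). Of those in replicate 2's own list, 39.6% and 58.6% overlapped the list of replicate 1 (exact test, adjusted p = 0.000374). The difference from promoters also passed in 4 further settings. Peaks in both lists had a median signal of 106, and those in neither had 58.3.

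Signals in the separate ranked lists are given as a description, since the IDR threshold selects peaks that rank alike in both replicates. Over 365 peaks with a value in each, replicate 2 divided by replicate 1 had a median of 1.19 (quartiles 0.962 and 1.49), and 347 or 95.1% were within 2-fold. Replicate 2 was the higher in 256 of them or 70.1%. There are 25 intronic peaks (6.68%) that repeat both replicate signals of a stronger neighbour, with a median signal of 7.91, and these make up much of the low end of the range.

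The highest intronic peak, at 267, lay in the first intron of T13B5.9, 640 bp from the gene start, and reached 136 in the list of replicate 1 and 129.2 in that of replicate 2. Next came mdt-26, which encodes a subunit of the Mediator complex, with 118 and 104.7. In pck-2, a phosphoenolpyruvate carboxykinase gene, the same values were 97.7 and 101.3. In mob-2, which encodes a member of the MOB family of kinase activators, they were 84.9 and 104.5, in an intron of 14198 bp. These 4 peaks had a signal above 84 in each replicate, while the median intronic peak had 33.9 in replicate 1 and 39.6 in replicate 2.

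Among the next highest peaks, egl-27, which encodes a chromatin protein of the MTA family, had 98.1 in replicate 1 and 74.2 in replicate 2, 7803 bp from its gene start. The autophagy gene epg-9 had 77.4 and 89.01. The peak of fat-4, a fatty acid desaturase gene, had 71.2 and 89.995, lay near an annotated internal transcript start and was closer to the start of fat-3, at 1320 bp, than to that of its host at 2274 bp. The peak of mom-1, which encodes a Porcupine-like protein for Wnt secretion, had 74.7 and 74.0. A peak in this set had to pass in each replicate's own list, which leaves out uneven ones such as that of pkg-2, at 133 with 39.2 in replicate 1 and 90.1 in replicate 2. The forkhead gene fkh-7 and ZK470.2 were the least even of the set, with 51.7 and 86.1 for fkh-7 and 51.6 and 85.4 for ZK470.2. Order by height within this set thus depends on the replicate.

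**Figure D2:**
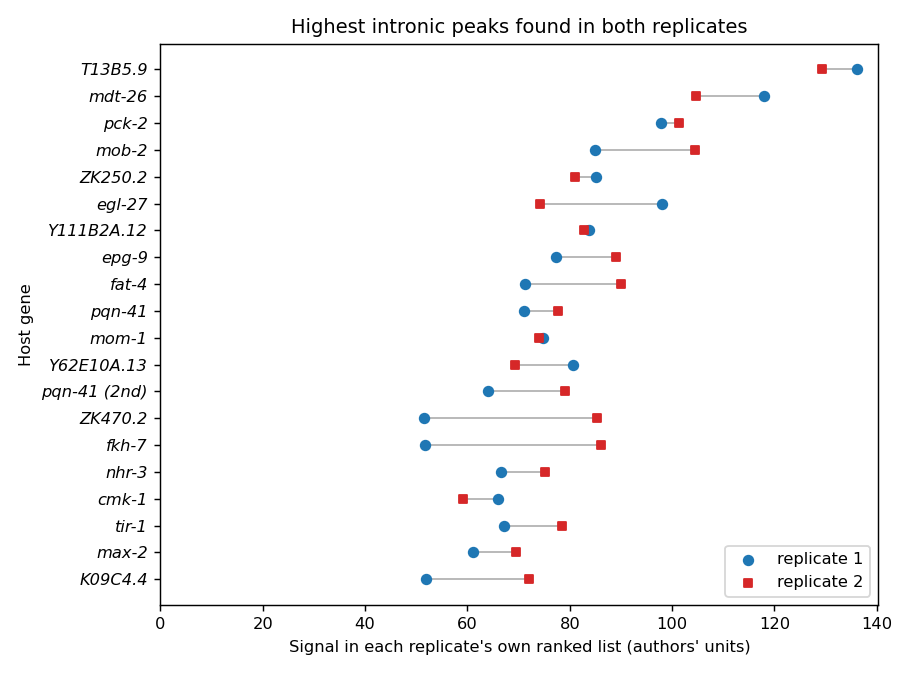
Signal in the authors' units (x axis, linear) in replicate 1 (circles) and replicate 2 (squares) for the 20 highest intronic peaks found in both replicates' own lists, by host gene (y axis). T13B5.9 is the highest in each replicate at 136 and 129.2, and fkh-7 and ZK470.2 have the widest gaps for their height.

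The GATA word, the core of sites bound by GATA factors such as those that control intestinal and epidermal genes, was the most frequent of the words compared. It was in 125 of 374 intronic summit windows or 33.4% (exact interval 28.7 to 38.5%), against 48 of 596 flank windows centred 500 bp away or 8.05% (Fisher's exact test, adjusted p = 6.42e-22 over the 20 words listed). Of all 248177 windows of qualifying intron sequence, 8.60% held it. The GAGA word, a short AG repeat, was in 95 windows or 25.4% (21.1 to 30.1%), against 6.88% of flanks (adjusted p = 1.91e-14, exact test) and 4.18% of all such windows. The E-box word CACGTG, a site of basic helix-loop-helix factors, was in 45 windows or 12.03% (8.91 to 15.8%), against 1.51% of flanks (adjusted p = 4.10e-11, exact test) and 1.37% of all, a difference that missed the threshold in the list of replicate 1 alone (exact test, adjusted p = 0.0654). A match is a sequence and does not show which protein was bound.

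The ETS word did not pass the test. CCGGAA was in 17 of 374 summit windows or 4.55% (2.67 to 7.18%). Flanks held it in 21 of 596 cases or 3.52% (exact test, adjusted p = 0.621). Of all qualifying windows 5.22% held it, and of those centred outside repeats marked in the reference 3.46%. The summit share was 6.45% against 2.81% of flanks in the list of replicate 2 alone and 5.38% against 1.90% in that of replicate 1. At an IDR of 0.001 it was 6.59% against 3.65%. The excess over flanks kept its direction in 16 of 19 alternatives without passing the threshold, and reversed in 3. The shorter CGGAA was in 16.3% of summit windows and 17.4% of flanks, and the longer CCGGAAGT in 0 and in 1 window. Promoter summits held CCGGAA in 2.54% of cases (exact test, adjusted p = 0.126 against introns) and distal ones in 4.75% (adjusted p = 1). In the other list of the series the shares were 6.17% in introns and 2.41% in promoters (exact test, adjusted p = 0.00772). Of 16 alternatives, this was the only 1 in which the difference from promoters passed. The 17 intronic peaks with the word lay above the intronic median signal in 13 cases or 76.5%, against 174 of 357 or 48.7% of those without (exact test, p = 0.044, adjusted p = 0.0881). With the shorter CGGAA, these shares were 65.6% and 46.96% (exact test, adjusted p = 0.0302). Of 15 alternatives, this 1 took the difference past the threshold and 2 reversed its direction. Among the reversed was the list of replicate 1 alone, with 42.9% and 50.4%. In the other list of the series the shares were 54.2% and 49.6%.

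TATA and heat shock words were less frequent at summits. TATAAA, the TATA-box word, was in 3.21% of summit windows and 12.1% of flanks (exact test, adjusted p = 2.62e-06), and the heat shock unit in 3.48% and 7.38% (adjusted p = 0.046). The second of these did not pass in 11 of 16 alternative settings. All other words of the list, those for AP-1, FOXO, E2F, T-box and nuclear receptor sites among them, missed the threshold.

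Base composition and repeat content also differed between intronic summits and other intron sequence. The median GC content was 42.6% in intronic summit windows, 33.7% in their flanks and 31.7% in all qualifying windows. The reference marks repeats as soft-masked letters, and 67 intronic summits (17.9%) fell on them, against 52.01% of qualifying intron sequence. Windows whose centre base is not soft-masked are called unmasked here, and may hold masked bases elsewhere. With only unmasked summit and flank windows, the GATA word was in 36.8% and 9.24% (exact test, adjusted p = 8.14e-17). For the E-box word the shares were 11.7% and 2.17% (exact test, adjusted p = 2.98e-06). The GAGA word was then in 25.1% and 8.42% (exact test, adjusted p = 3.98e-08). The ETS word was in 4.89% of unmasked summit windows and in 3.46% of all unmasked qualifying windows. The part of GC content in the result was not tested.

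**Figure D3:**
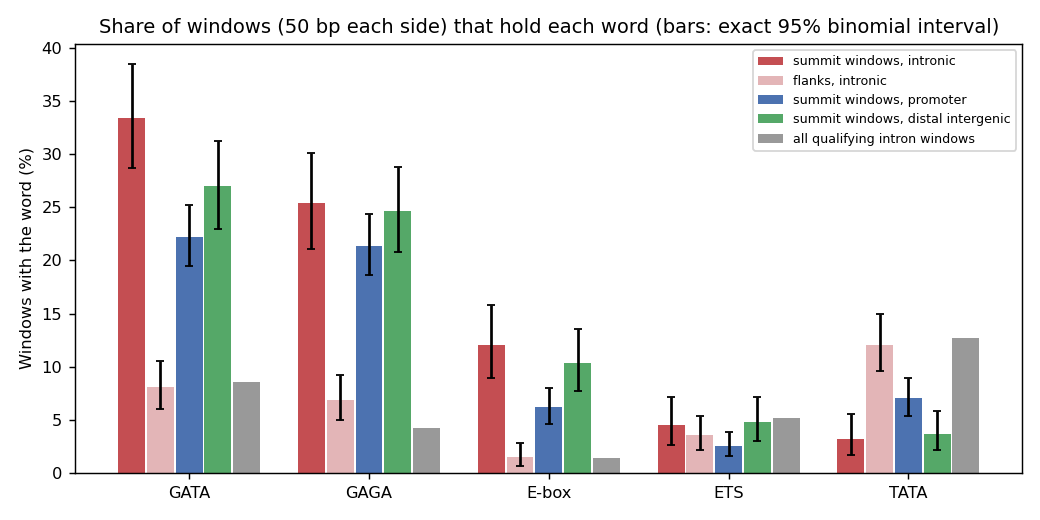
Share of windows of 50 bp to each side that hold each word (y axis, percent) for 5 words (x axis), in intronic summit windows, their flanks, promoter and distal intergenic summit windows, and all qualifying intron windows; error bars are exact 95% binomial intervals. The GATA word reaches 33.4% in intronic summit windows and 8.05% in flanks, and the ETS word stays at 4.55% and 3.52%.

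Words clustered at the summit itself. In bins of 50 bp, the GATA word was in 21.1% of intronic peaks at the centre and in 3.21% and 6.42% at 500 bp to either side. The GAGA word reached 16.3% and the E-box word 6.42% in the central bin. The ETS word was in 1.87% there and between 1.07 and 3.74% in every bin.

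**Figure D4:**
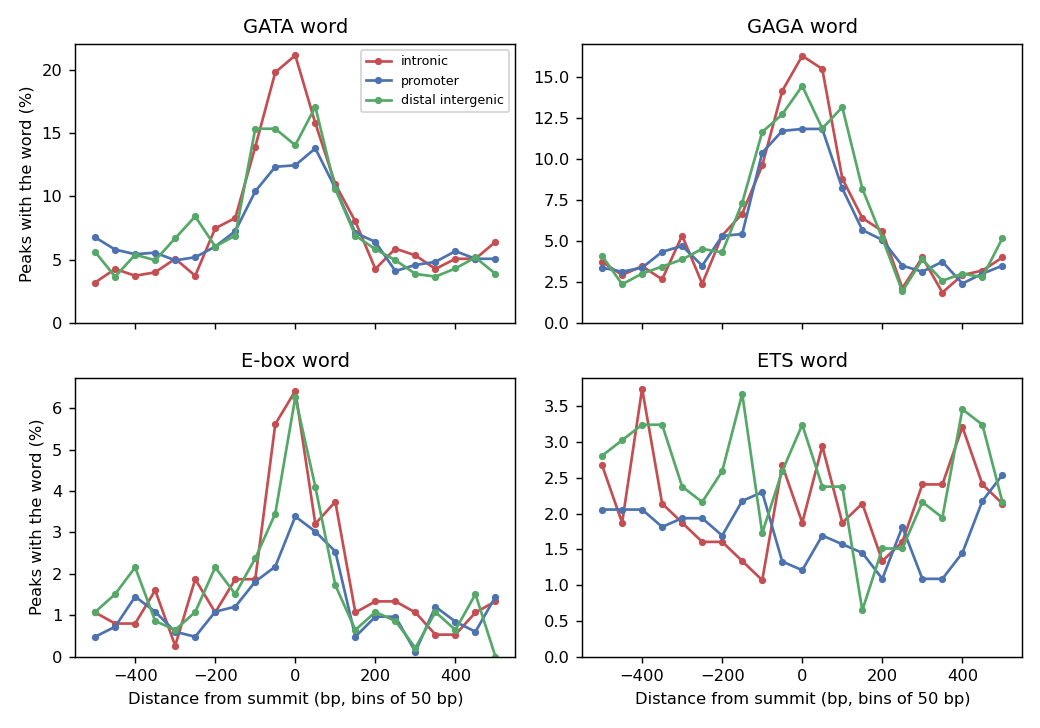
Share of peaks with each word (y axis, percent, separate scale in each panel) by distance from the summit in bins of 50 bp (x axis), for intronic, promoter and distal intergenic peaks. In intronic peaks the GATA, GAGA and E-box words peak in the central bins, at up to 21.1, 16.3 and 6.42%, and the ETS word has no rise there.

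Across classes, the GATA word was more frequent in intronic than in promoter peaks. It was in 184 of 827 promoter windows or 22.2%, below the 33.4% of introns (exact test, adjusted p = 0.00249 over 40 comparisons), and in 27% of distal windows (adjusted p = 0.386). The E-box word was in 6.17% of promoter windows against 12.03% in introns (adjusted p = 0.016, exact test), a difference that missed the threshold in 6 of 11 alternatives. For the GAGA word the shares were 25.4% in introns, 21.4% in promoters and 24.6% in the distal class (exact test, adjusted p = 0.658 and 1). The GATA difference from promoters missed the threshold with replicate 1 alone (30.8% against 21.1%, exact test, adjusted p = 1) and at an IDR of 0.001 (29.9% against 19.1%, exact test, adjusted p = 0.117).

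The 3 words were mostly found apart. At least 1 of them was in 60.4% of intronic summit windows, against 15.3% of flanks and 13.7% of all qualifying windows. Of the 374 windows, 187 held 1 of the words, 39 held a pair and 0 held all 3. The pairs were GATA with GAGA in 16, GAGA with E-box in 13 and GATA with E-box in 10. Peaks with the GATA word were in both replicates' lists in 16% of cases and those without in 26.9% (exact test, p = 0.0196, adjusted p = 0.118 over 6 tests), and none of the 6 tests of these words against signal or presence in both lists passed. As a description, the GATA word was in 44.2% of the 77 intronic peaks on X and 30.6% of the 297 on autosomes.

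All words of 6 bases were then scanned. Among those more frequent at summits, the GATA, GAGA and E-box words stood at places 1, 3 and 6 by p-value. Words that overlap the GATA and GAGA words stood between them. Of 1376 words in 10 or more intronic summit windows, 185 were more frequent there than in flanks, or 13.4% of those tested, and 94 were less frequent, or 6.83% (Fisher's exact test, adjusted p under 0.05 over all words). Of the 185 words, 9 hold a GATA core and 62 hold CG. Among the words below these, CGTCTC was in 11.8% of summit windows and 2.18% of flanks, and ACGCAG in 11.5% and 2.35%. Of the 94 less frequent words, 28 are made of A and T alone, and AAAAAT was in 21.4% of summit windows and 55.2% of flanks. AAAAAT had the lowest p-value of the whole scan, below that of the GATA word (exact test, adjusted p = 6.59e-23). With unmasked windows only, which are fewer, 80 and 47 words were called.

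Tandem repeats were rare among intronic peaks. A window that matched itself at 80% or more for some shift from 10 to 50 bp was found at 5 of 374 summits or 1.34% (0.435 to 3.09%), against 1.11% of all qualifying windows. The 5 were in pck-2 (signal 199), cmk-1 (133), tir-1 (133), vamp-8 (74.5) and Y32F6A.5 (56.0). The periods were 40 bp in pck-2, tir-1 and vamp-8, 22 bp in cmk-1, a calmodulin-dependent kinase gene, and 25 bp in Y32F6A.5. Those of pck-2, cmk-1 and tir-1 are among the 20 highest peaks, and what repeats do to the signal was not tested.

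Within their genes, intronic peaks lay more in first introns and near internal starts than the qualifying sequence does. In a first intron were 141 of 374 or 37.7% (32.8 to 42.8%), against 22.1% of the sequence. An annotated internal transcript start of the host lay within reach, from 200 bp upstream to 1000 bp downstream of the summit, for 28.1% of them (23.6 to 32.9%), against 11.0%. Either held for 50.5%, against 29.0%. These shares were not adjusted for intron length. Neither position passed a test against height: 45.4% of first-intron peaks lay above the intronic median signal and 52.8% of later ones (exact test, adjusted p = 0.286), and the shares with and without an internal start were 52.4% and 49.1% (exact test, adjusted p = 0.717). At an IDR of 0.001 the last shares were 27.7% with an internal start and 58.3% without (exact test, adjusted p = 0.00509), the opposite direction.

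Long introns held more peaks for their length. There were 4.50 peaks per Mb in introns of up to 200 bp (exact Poisson interval 2.57 to 7.31), 8.99 in those of 1000 to 2000 bp, 21.7 in those of 2000 to 5000 bp (17.8 to 26.4) and 31.9 in longer ones (26.5 to 38.2). The median host intron was 3066.5 bp long. By distance from the gene start the density ran from 8.11 per Mb within 500 bp to 16.03 at 5000 to 10000 bp, with intervals that overlap from 1000 bp onward. The nearest protein-coding gene start was that of the host for 71.7% of the peaks. The nearest intronic peak to its gene start, in E01G4.3, was 201 bp from it with a signal of 94.7, and the summit just inside a promoter window, in tent-5, was at 198 bp with 62.8. At the small RNA limit, the nearest intronic peak, in zip-2, was 256 bp from such a gene (signal 102), and the summit just inside, in sup-35, was at 194 bp (86.2).

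**Figure D5:**
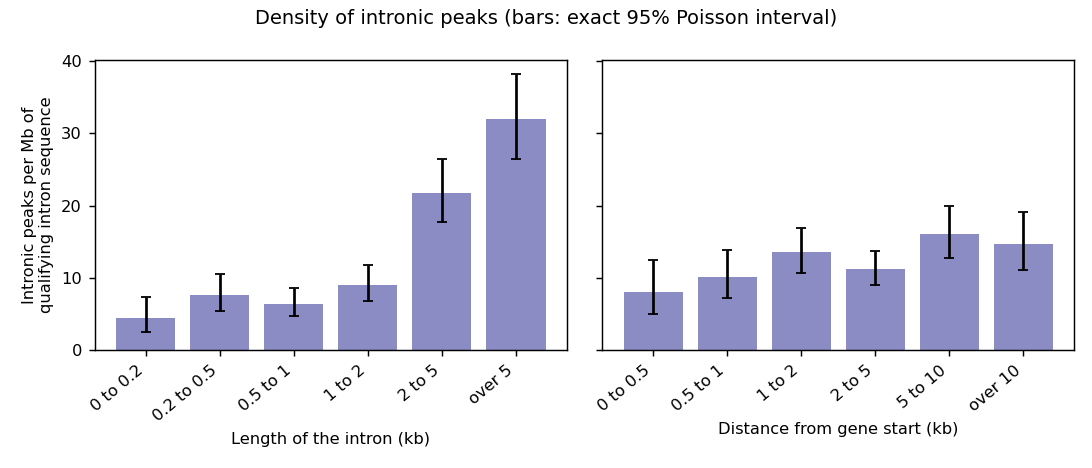
Intronic peaks per Mb of qualifying intron sequence (y axis) by length of the intron (left) and by distance from the gene start (right), in kb; error bars are exact 95% Poisson intervals. Density rises from 4.50 in introns of up to 200 bp to 31.9 in those over 5000 bp, and ranges from 8.11 to 16.03 by distance.

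Along chromosomes, 191 of 297 autosomal intronic peaks or 64.3% (58.6 to 69.8%) lay in the middle 50%, against 42.4% of autosomal qualifying sequence. Chromosome X held 20.6% (16.6 to 25.05%) against 16.7% of the sequence, though 16.6% in the list of replicate 2 alone, and chromosome I 12.6% (9.38 to 16.4%) against 18.2%.

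The intronic peaks were in 279 host genes, or 1.59% of the 17531 protein-coding genes with qualifying intron sequence. Of the hosts, 212 held 1 peak, 45 held 2 and 22 held 3 or more. Hosts were long, with a median span of 7312 bp against 2289 bp. A promoter summit was also present in 30 of 279 hosts or 10.8% (7.37 to 14.99%), and in 4.63% of the 17252 genes without an intronic peak.

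Genes with 5 intronic peaks were daf-5, pqn-41 and zfp-1. In zfp-1, which encodes a zinc finger protein related to mammalian AF10, all 5 held the GAGA word and signals ran from 72.9 to 107. In pqn-41, which encodes a glutamine-rich protein, 4 of 5 held it and signals ran from 7.91 to 154. In daf-5, which encodes a Sno/Ski protein that works with Smads in dauer formation, signals ran from 13.3 to 102. Genes with 4 peaks were skn-1 (45.95 to 108), the oxidative stress regulator, aakg-1 (6.74 to 79.3), which encodes an AMP-activated kinase subunit, pkg-2 (54.8 to 133), a cGMP-dependent kinase gene, and ZK470.2 (54.1 to 139). Those with 3 included the FOXO gene daf-16 (66.5 to 81.9), the TEAD gene egl-44 (57.1 to 108), the anion transporter gene abts-4 (104 to 119, all in both replicates' lists) and mob-2 (60.8 to 178, all with the GATA word).

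Host genes of the EGF, Ras and ERK pathway numbered 5 of 38, or 13.2%, against 1.59% of all genes with qualifying sequence. Per length, this was 28.1 peaks per Mb, against 12.6 over all qualifying sequence. All 8 peaks lay in introns over 5000 bp, a class that held 31.9 peaks per Mb over all genes. LIN-1's own gene held 3 peaks, all in an intron of 20948 bp. The highest, at 91.4, had 27.9 in replicate 1 and 68.05 in replicate 2 and was in the list of replicate 2 only; the next was 81.3 (27.1 and 43.9), and the third, 4.94, repeats the signals of the next. The ERK gene mpk-1 had a peak of 68.2 in its first intron, with 24.0 and 38.03 in the replicates. The protein phosphatase subunit gene ppfr-1 had 77.2 and 71.6, the kinase gene par-1 had 59.6, and soc-2, which encodes a leucine-rich scaffold of Ras signalling, had 40.6. Of these 8 peaks, 1 was in both replicates' lists, the higher of ppfr-1.

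The other signalling and organ lists had few hosts, and their shares stand beside the 1.59% of all genes with qualifying sequence. The Wnt share, 9.68%, had an exact 95% interval of 2.04 to 25.8%, above 1.59% but resting on 3 hosts. The shares of Notch, 3.45% (0.0873 to 17.8%), and the excretory list, 6.67% (0.818 to 22.1%), had intervals that hold the 1.59%. Notch had 1 host of 29, lag-1, whose DNA-binding protein acts at the end of the pathway, with a peak of 118 (52.7 and 63.3 in the replicates). Wnt had 3 hosts of 31: mom-1, the ROR-type receptor gene cam-1 at 109 (44.99 and 58.4) and the Nemo-like kinase gene lit-1 at 66.2. FGF had 0 of 5, which allows up to 52.2%. The vulval list had 0 of 45, which allows up to 7.87% (exact 95% interval), a range that holds the 1.59% of all genes. The excretory list had 2 of 30, nhr-31 at 67.9, with a repeat of it at 2.83, and erm-1, which encodes an ezrin-type membrane linker, at 66.0.

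Of 15 heterochronic genes, which time the stages of larval development, 4 were hosts (exact interval 7.79 to 55.1%, against 1.59% of all genes with qualifying sequence), with 71.0 peaks per Mb against 12.6. The highest peaks were in lin-14, at 112.4 (52.6 and 51.9 in the replicates), and in the nuclear receptor gene daf-12, at 111 (49.9 and 60.4). Both genes held a lower peak as well, 72.5 in lin-14 and 54.4 in daf-12. The zinc finger genes blmp-1 and sea-2 had peaks of 66.2 and 53.9, and a further sea-2 peak, 9.52, repeats the signals of the other. Of these 7 peaks, 1 was in both replicates' own lists, the higher of daf-12. Zinc finger and other regulators of development had 14 hosts of 72, or 19.4%, at 74.3 peaks per Mb, with egl-27 (173), fkh-7 (138), fkh-9 (109) and egl-44 (108) the highest. Insulin, TGF-beta and dauer genes had 7 of 79, or 8.86%, with daf-14, a Smad gene, at 104. Some genes are in more than 1 list.

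Among other families of regulators, nuclear hormone receptor genes had 8 hosts of 269, or 2.97%, at 31.9 peaks per Mb, led by nhr-3 (137) and nhr-46 (122.9). Homeobox genes had 3 of 100: psa-3 (78.7), ceh-37 (68.3) and nob-1 (56.3). The bHLH list had 1 of 39, hlh-30 (84.9), a regulator of autophagy and lysosome genes. The ETS list had 2 of 10, lin-1 and ets-4 (60.2). The exact intervals of the nuclear receptor, homeobox and bHLH shares hold the 1.59% of all genes with qualifying sequence. That of the ETS list, 2.52 to 55.6%, lies above it but rests on 2 hosts. The tagged gene lin-1 held 3 of the list's 4 peaks and 22.4 kb of its 0.0359 Mb of qualifying sequence.

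Among neuronal and structural genes, ion channel and neurotransmission genes had 4 hosts of 433, or 0.924%, at 3.84 peaks per Mb, with unc-43 (92.5), which encodes CaM kinase II, the highest. Axon guidance and cell adhesion genes had 1 of 71, mig-10 (49.4), at 1.81 per Mb. The exact intervals of both shares, 0.252 to 2.35% and 0.0357 to 7.60%, hold the 1.59% of all genes with qualifying sequence. Chemoreceptor genes had 3 of 1289, or 0.233% (0.048 to 0.679%, below the 1.59%), with srt-52 (99.7) the highest. Muscle genes had 0 of 47, cuticle collagens 0 of 131 and cytosolic ribosomal protein genes 0 of 36. The exact intervals allow up to 7.55, 2.78 and 9.74%, ranges that hold the 1.59% of all genes with qualifying sequence. Qualifying sequence was only 0.0497 Mb for the collagens and 0.00416 Mb for the ribosomal protein genes. The lists were chosen with earlier results known, and these counts describe them with no test. Their shares and densities are not adjusted for intron length.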

How the data were processed

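ChIP-seq peaks of tagged LIN-1 from 2 replicates of 1 group were analysed as deposited. The authors' lists are IDR ranked and thresholded peak lists on ce11, per the labels; the peak caller, aligner and read depth are not given in the sources used. Each replicate has lists of its own, and the conservative list, used as the main one, draws on both. The deposited signal and score of a peak are the authors' own, on a scale that is not stated, and the −log10 of the global IDR is deposited in the ranked lists. In every thresholded list the global IDR did not exceed 0.01, as checked against the ranked one.

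The summit of each peak was set against the Ensembl 115 annotation of WBcel235. Replicate signals are those of the highest overlapping peak, by 1 bp or more, of a replicate's own ranked list. Words on both strands were counted within 50 bp to each side of the summit and in flanks centred 500 bp away in no exon. Shares were compared by Fisher's exact test, two-sided, with Benjamini-Hochberg adjustment and a threshold of 0.05, in Python 3.11.15 with SciPy 1.17.1. Peaks are not replicates, so p-values and intervals cover counting over peaks only. The word scan was tested on simulated windows in which summits and flanks had the same base composition. That simulation does not cover the difference in GC content between the real summit and flank windows.

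The rule for named genes takes the 20 highest peaks in both replicates' lists, all peaks in genes of the signalling and organ lists, up to 4 in each other list, and genes with 3 or more peaks, of which some are given only as counts; other genes were chosen after their values were seen. Members and lists were chosen with earlier results of these data known. Alternatives included other lists, thresholds, windows, words and flanks. Comparisons of words between classes, unmasked windows, signal by word and tandem repeats were added after seeing the data.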

Additional observations from a re-analysis of the deposited data

How the results depend on the processing

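The GATA and GAGA words were more frequent at summits, and the TATA word less, past the threshold in all 16 alternatives; the E-box word missed it with replicate 1 alone (9.23% against 2.84% of flanks, exact test, adjusted p = 0.0654). The first intron and internal start shares stayed within their intervals in 11 alternatives, and at least 17 of the 20 highest peaks were members in the 9 alternatives that draw on both replicates. Differences below are in percentage points, intronic minus the other class, summit minus flank, or with minus without; the cause of each change was not tested.

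With 1 replicate's own list at a time, there were 130 to 217 intronic peaks, 111 to 178 host genes and 5 to 9 hosts in the signalling and organ lists. The words called more frequent numbered 59 to 122 and those less frequent 27 to 56, and 1 listed word was less frequent in either. The X share was 16.6 to 21.5%, the soft-masked share 11.5 to 14.6% and the middle share 64.6 to 71.6%. Differences above the median signal were -6.38 to -2.18 against promoters and -10.4 to -1.88 against distal peaks. The share that overlapped the other replicate's list differed by -19.02 to -3.15 from distal peaks. ETS against distal peaks gave -1.63 to 1.56. Signal differences were -7.55 to 30.8 by ETS word, -3.70 to 15.3 by first intron and -9.74 to -4.15 by internal start. GAGA gave -0.427 to 6.84 against promoters and -3.77 to 3.13 against distal peaks, and the E-box word -1.73 to 0.412 against distal peaks.

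In the other list of the series, 6 listed words were more frequent and 1 less; ETS differed by 3.76 from promoters and 1.24 from distal peaks, and GAGA by -1.02 from distal peaks. At an IDR of 0.001 there were 167 peaks in 135 genes, 7 hosts in the signalling and organ lists, 84 words more and 34 less frequent, and 11.4% soft-masked summits. There, signal above the median differed by -0.922 from promoters and -5.04 from distal peaks, ETS by 1.91 and GATA by -1.12 from distal peaks, and signal by 0.450 for first introns and -30.7 for internal starts. Without repeated peaks, signal differed by -8.45 and ETS by 0.284 from distal peaks. With the strongest of summits within 500 bp these were -8.26 and 0.323, and the share in both lists differed by -7.31 from promoters.

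With promoter windows of 500 bp upstream, 1 listed word was less frequent, both lists differed by -8.49 from promoters and -6.92 from distal peaks, and signal by -6.87, ETS by 0.221 and GAGA by -0.0488 from distal peaks. With windows of 2000 bp upstream, 1 listed word was less frequent, 65.1% of peaks were in introns over 2000 bp, both lists differed by -6.82 from promoters and signal by -3.12 for internal starts. At 0 bp from small RNA genes, 53.1% were in such introns and the internal start difference was -2.84. Sharing by 50% of the shorter peak or by summits within 100 bp gave -7.29 and -7.71 from promoters.

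Windows of 25 bp to each side gave 90 words more and 41 less frequent, 1 listed word less frequent, an ETS difference of -0.577 from flanks and a signal difference of -16.9 by ETS word. Windows of 100 bp gave 284 and 159 words, and 1 listed word less frequent. For CGGAAG, ETS differed by 2.70 from distal peaks; for CGGAA, by -1.14 from flanks, with a signal difference of 18.6; for CCGGAAGT, by -0.168 from flanks and -0.121 from promoters. With all flanks, or more than 200 bp from any non-coding gene, 1 listed word was less frequent. Unmasked windows gave 80 and 47 words. No paired analysis was possible because there is 1 group. Peak lists without read totals limit what can be said of depth, and a single group allows no background from untagged animals.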
